A study of Rattus norvegicus with 6 samples.

Results

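Genes of nitric oxide production and of the NADPH oxidases were examined in primary cultures of rat spinal cord astrocytes: Nos1, Nos2, Nos3, Gch1, Ass1, Ddah1, Nox4, Cyba, Cybb and Ncf1. They were taken as every probe set of the array whose only gene symbol in the platform annotation is among these 10 names. This gave 13 probe sets of the 31042 for genes on the array, with 1 each for 7 genes and 2 each for the 3 genes Cyba, Cybb and Gch1. A further probe set (1387667_at) carries the names of both Nos2 and the pseudogene Nos2-ps1 and was left out of the 13.

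The hSOD1G93A cultures came from rats that carry human superoxide dismutase 1 with the G93A substitution, which causes familial amyotrophic lateral sclerosis, and the NonTG cultures they were set against came from rats without the transgene. Each group had 3 arrays, labelled A, B and C, made from monolayers grown to confluence and then held in L15 medium with supplements during the last 24 hours. The age of the animals, the promoter of the transgene, the number of animals or separate cultures behind a group, and what the letters stand for are not given in the sources used here. The p-values therefore rest on the spread between these arrays alone, and that spread may be technical. For the labelled cell type, 10 of 10 measured astrocyte genes were above the filter on dim probe sets. The brightest of these genes, Fabp7, a glial carrier of fatty acids, read 19940 to 22260 in hSOD1G93A and 22000 to 23400 in NonTG. Markers of other cells passed as well, 8 of 8 for fibroblasts and meninges and 7 of 8 for pericytes and smooth muscle. Passing the filter therefore does not set astrocytes apart from these cells. The brightest of the fibroblast and meningeal markers, the collagen gene Col1a2, read 19710 to 20890 in hSOD1G93A and 21030 to 23380 in NonTG.

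Nitric oxide is made from arginine by nitric oxide synthases, which need the cofactor tetrahydrobiopterin. Nos1 and Nos3 are calcium-dependent forms known from neurons and endothelium, and Nos2 is the form that inflammatory signals induce in glia and macrophages. NADPH oxidases pass electrons from NADPH across a membrane to oxygen and so make superoxide or hydrogen peroxide. Cybb and Cyba form the membrane part of the phagocyte oxidase, Ncf1 organizes its cytosolic part, and Nox4 is a form that works with Cyba without the cytosolic subunits. Nitric oxide and superoxide combine to peroxynitrite.

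Signals are the authors' MAS5 intensities, and log2 values of them were compared in limma. A probe set was taken as near the lower limit of measurement, or dim, unless its log2 signal averaged over the arrays exceeded the 40th percentile of all probe sets (a signal of 66.7). As a gauge of that limit, 19 probe sets of olfactory and vomeronasal receptors had a median signal of 13.4, and 0 of the 19 lay above the filter. Of the 13 probe sets of nitric oxide and oxidase genes, 5 passed: those of Ddah1, Cyba, Ass1, Gch1 and Nox4. The other 8 did not, and with them every probe set of Nos1, Nos2, Nos3, Cybb and Ncf1. No synthase was therefore read well enough for a fold between the groups. A signal depends on its probes, so it ranks no gene above another as an amount of RNA.

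**Figure D1:**
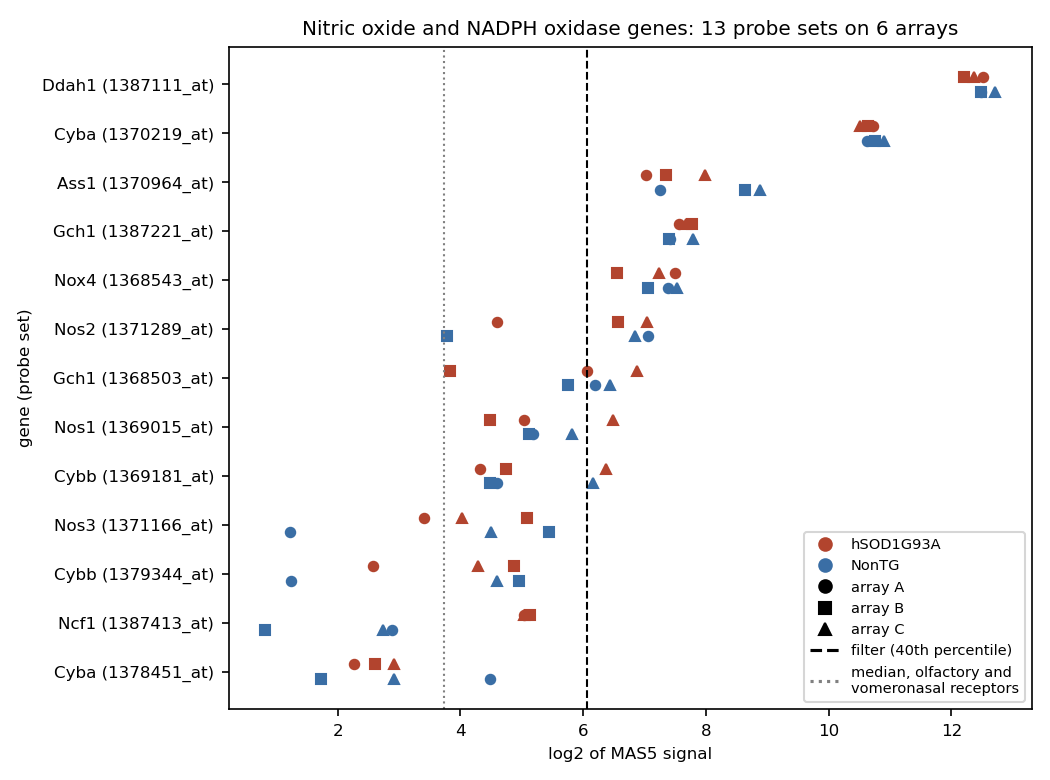
Log2 MAS5 signal (x axis) of the 13 probe sets (y axis) on each of the 6 arrays, with hSOD1G93A above NonTG in each row; the dashed line is the filter and the dotted line the median of the receptor probe sets. Ddah1, Cyba, Ass1, Gch1 and Nox4 each have a probe set wholly to the right of the filter, while the signals of Nos3, Ncf1 and the other probe set of Cyba are all to its left.

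Cyba and Cybb code for partners in a single membrane complex. Of the 2 Cyba probe sets 1 was above the filter, and of the 2 Cybb probe sets 0 were, which does not rank the genes by amount. Their promoters are shown beside each other as those of partner genes. The sequences are those of RefSeq (build GRCr8), from 250 bases before the annotated start to 50 bases after it, which matched 9 of the 10 genes. Cyba's lies at chr19:67404165-67404464 and Cybb's at chrX:16065016-16065315, both on the minus strand and written 5′ to 3′ in the direction of the gene. Capitals mark matches on either strand to the GC box GGGCGG, the CCAAT box, the TATA box TATAAA and GAGGAA, the core of the sites bound by the myeloid factor PU.1.
Cyba: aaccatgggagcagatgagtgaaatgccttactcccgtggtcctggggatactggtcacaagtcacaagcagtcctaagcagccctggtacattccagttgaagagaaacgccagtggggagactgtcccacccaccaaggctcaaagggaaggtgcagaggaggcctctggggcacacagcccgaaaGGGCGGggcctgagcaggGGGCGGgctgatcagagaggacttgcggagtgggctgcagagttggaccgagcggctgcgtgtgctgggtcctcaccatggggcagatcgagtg
Cybb: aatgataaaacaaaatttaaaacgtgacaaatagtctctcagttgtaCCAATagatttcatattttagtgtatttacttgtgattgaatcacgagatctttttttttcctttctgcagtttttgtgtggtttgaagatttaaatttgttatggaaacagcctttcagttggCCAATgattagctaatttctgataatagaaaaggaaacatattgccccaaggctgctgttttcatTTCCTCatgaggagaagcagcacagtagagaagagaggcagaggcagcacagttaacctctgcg

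The Cyba promoter was 61.0% G and C with 10 CpG and 2 GC boxes, and that of Cybb 35.7% with 3 CpG, 2 CCAAT boxes and 1 match to GAGGAA. Among all 33469 promoters of the table the median was 51.7% G and C, and 33.1% held a GC box, 37.5% a CCAAT box, 14.2% the TATA box and 27.6% the GAGGAA core. The promoters of the other genes with a measured probe set were 73.0% G and C for Nox4, 71.0% for Ddah1, 63.3% for Gch1 and 51.0% for Ass1. Those of the dim genes Nos3, Ncf1 and Nos1 were 63.0%, 59.7% and 55.3%, so G and C content did not part the measured genes from the dim ones. Of the 9 promoters, that of Ass1 alone held the TATA box. A match of letters is a description and not a site shown to be bound.

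Among the synthases, Nos2 (1371289_at) came closest to being measured, with signals of 24.3, 94.4 and 131.5 in hSOD1G93A on arrays A, B and C, and 132.3, 13.7 and 114.7 in NonTG. Its array of lowest signal was A in hSOD1G93A and B in NonTG, and the spread within each group was wider than the distance between their means. The probe set named for both Nos2 and Nos2-ps1 (1387667_at) read only 2.612 to 5.999 in hSOD1G93A and 1.885 to 8.21 in NonTG. Nos1 (1369015_at) read 32.6, 22.3 and 89.2 in hSOD1G93A and 36.5, 34.8 and 56.3 in NonTG. Both groups had their highest Nos1 signal on array C, and the groups overlapped. Nos3 (1371166_at) read 10.6, 34.1 and 16.4 in hSOD1G93A and 2.34, 43.45 and 22.6 in NonTG. Its mean was above that of 63.2% of the receptor probe sets, and the groups overlapped.

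The cells in which these forms are best known were also checked. Of 9 endothelial markers 3 were above the filter, and their summed signal was 469 to 561 in hSOD1G93A and 507 to 579 in NonTG, with the brightest, Kdr, a receptor for vascular endothelial growth factor, at 111.8 to 270.1 in hSOD1G93A and 64.1 to 175.4 in NonTG. Of 10 neuronal markers 7 were above it, with a summed signal of 5149 to 5913 in hSOD1G93A and 4633 to 5909 in NonTG. The brightest neuronal markers were Gad1, which makes GABA, and Stmn2, a microtubule regulator of growing axons. In a bulk sample a change in the number of cells of a type and a change in RNA per cell cannot be told apart.

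Gch1, GTP cyclohydrolase 1, makes the first and rate-limiting step toward tetrahydrobiopterin. Its measured probe set (1387221_at) had signals of 189.7, 218.7 and 205.4 in hSOD1G93A, against 171.6, 168.9 and 221.4 in NonTG. Arrays A and B of hSOD1G93A were above the same letters of NonTG and array C was below, so the groups overlapped. The difference was 0.14 on the log2 scale (SE 0.18, 95% interval -0.27 to 0.55), and it was 0.26 without NonTG C and 0.067 without NonTG B. The other Gch1 probe set (1368503_at), under the filter, read 67.04, 14.2 and 116.9 in hSOD1G93A and 73.35, 54.2 and 86.9 in NonTG.

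Ass1, argininosuccinate synthase, makes the precursor from which arginine is rebuilt out of citrulline, the by-product of nitric oxide synthesis. It had the largest difference among the 5 measured genes (1370964_at): 129.7, 162.8 and 252.4 in hSOD1G93A, against 152.9, 397.7 and 472.4 in NonTG. In both groups array A was lowest and array C highest, and the groups overlapped because NonTG A lay below 2 of the 3 hSOD1G93A arrays. The difference was -0.81 (SE 0.41, 95% interval -1.73 to 0.11), or 1.75-fold lower in hSOD1G93A, and within the letters A, B and C it was -0.24, -1.29 and -0.90. Ass1 was the only 1 of the 5 measured genes that was lower within all 3 letters, as were 12.2% of the 18625 probe sets tested, and 0 of the 5 was higher within all 3, against 13.5% of the probe sets. The difference was -1.31 without NonTG A and -0.50 without NonTG C.

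Ddah1, dimethylarginine dimethylaminohydrolase 1, breaks down methylated arginines that inhibit the synthases. Its probe set (1387111_at) was among the brightest on the array, with signals of 5851, 4689 and 5300 in hSOD1G93A, against 5727, 5753 and 6740 in NonTG. Arrays B and C of hSOD1G93A were below all of NonTG, while array A was above 2 of the 3 NonTG arrays. The difference was -0.20 (SE 0.10, 95% interval -0.43 to 0.025), or 1.15-fold lower, and the interval reaches from 0.741-fold to 1.02-fold. It was -0.12 without hSOD1G93A B and -0.13 without NonTG C.

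Of the oxidase genes, Nox4 (1368543_at) read 180.1, 93.8 and 150.6 in hSOD1G93A, against 168, 132.7 and 184.3 in NonTG. Array B was the lowest of each group, and the groups overlapped. The difference was -0.23 (SE 0.27, 95% interval -0.85 to 0.39), and it turned to 0.040 without hSOD1G93A B. On that array 7 of the 8 pericyte and smooth muscle markers were also at their lowest of the 6 arrays. Their summed signal was 17560 on it and 24930 to 28920 on the other hSOD1G93A arrays, against 23610 to 29330 on the NonTG arrays. The summed signal of 8 fibroblast and meningeal markers was also lowest on it, at 45220. It was 56260 to 62230 on the other hSOD1G93A arrays and 60550 to 61450 on the NonTG arrays. Only 3 of these 8 markers were at their lowest on hSOD1G93A B. Dcn and Aldh1a2, named after their values were seen, were above every NonTG array on all 3 hSOD1G93A arrays, not on B alone. Dcn read 666.7, 283.2 and 348.6 in hSOD1G93A, against 59.06 to 92.29 in NonTG. Aldh1a2 read 558.8, 473.6 and 434.5 in hSOD1G93A, against 152.0 to 281.8 in NonTG. These 2 of the 8 stand beside 4% of all probe sets tested. Another 1, Col1a2, had all hSOD1G93A arrays below all NonTG arrays, beside 3.51%. By sign 4 of the 8 were higher and 4 lower. The part of such cells in the Nox4 signal was not tested.

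Cyba, the p22phox subunit that stabilizes Nox4 and Cybb, read 1690, 1605 and 1462 in hSOD1G93A, against 1588, 1723 and 1915 in NonTG (1370219_at). Array C was the lowest in hSOD1G93A and the highest in NonTG, and the groups overlapped because hSOD1G93A A and B were above NonTG A. The difference was -0.13 (SE 0.10, 95% interval -0.36 to 0.094), and it was -0.077 without hSOD1G93A C and -0.064 without NonTG C. The other Cyba probe set (1378451_at) had signals of 4.78 to 7.51 in hSOD1G93A and 3.29 to 22.4 in NonTG, under the filter on every array.

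Cybb, the catalytic gp91phox subunit of the phagocyte oxidase, was near the limit with both probe sets. The brighter (1369181_at) read 20.04, 26.8 and 82.9 in hSOD1G93A and 24.1, 22.4 and 71.4 in NonTG, with array C highest in each group. The other (1379344_at) read 5.94, 29.3 and 19.45 in hSOD1G93A and 2.36, 30.8 and 24.2 in NonTG, with array A lowest in each group. For both probe sets the groups overlapped.

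Ncf1, the p47phox organizer, was the exception among the dim probe sets in that its groups did not overlap (1387413_at). It read 32.85, 34.96 and 32.7 in hSOD1G93A, against 7.38, 1.76 and 6.68 in NonTG, and all 6 signals were under 66.7. With both groups below the filter no fold is given. In the fit without the filter limma's adjusted p = 0.9998, and 0.867 to 1.0 over its alternatives. Of the 12417 probe sets at or under the filter, 4.21% had all hSOD1G93A arrays above all NonTG arrays. Microglia and macrophages are the cells best known for Ncf1 and Cybb: 4 of 16 of their markers were above the filter, and Ptprc, Itgam, Tyrobp, Cx3cr1 and Aif1 were among the 12 that were not. Their summed signal was 1243 to 1329 in hSOD1G93A and 995 to 1753 in NonTG. The brightest were Cd14, a co-receptor for lipopolysaccharide, and Laptm5. Cd14 read 537.6 to 743.7 in hSOD1G93A and 542.8 to 1061 in NonTG, and was the largest single part of the sum on every array. Like Ncf1, 2 of the 16 markers had all hSOD1G93A arrays above all NonTG arrays, both of them among the 12 dim ones. Of these 12, 1 had them below. The share with them below was counted only for probe sets above the filter, where it was 3.51%. Csf1r, a receptor for macrophage growth factors, read 64.2 to 89.7 in hSOD1G93A and 10.47 to 48.27 in NonTG. C1qa, a complement subunit, read 42.9 to 49.4 in hSOD1G93A and 7.26 to 42.05 in NonTG. Ptprc, the common leukocyte antigen, read 2.29 to 9.49 in hSOD1G93A and 25.85 to 31.55 in NonTG. These 3 markers are named after their values were seen. The part of such cells in the Ncf1 signal was not tested.

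**Figure D2:**
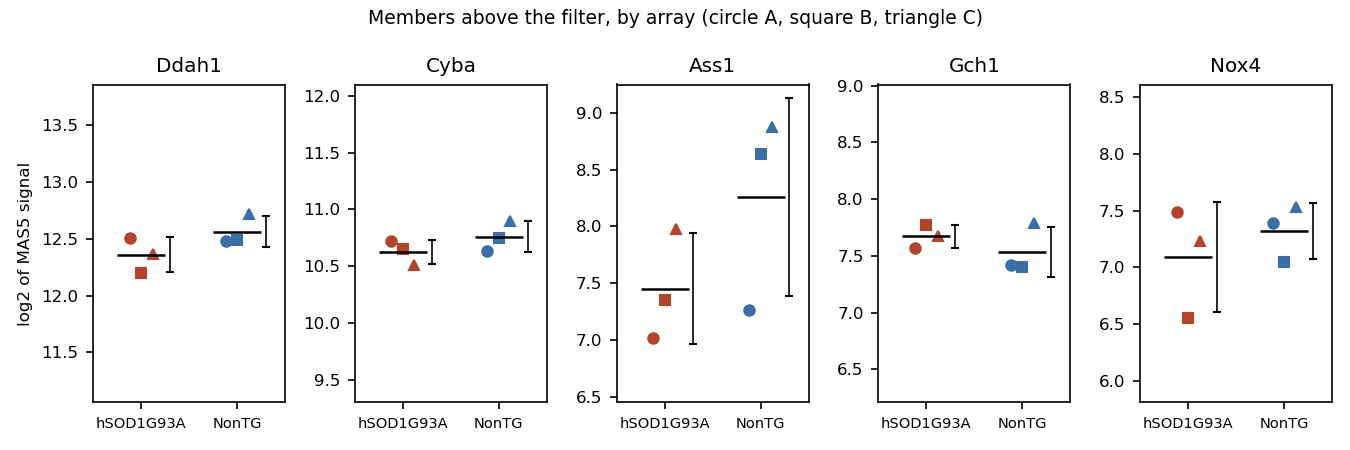
Log2 MAS5 signal (y axis, the same number of log2 units in each panel) of the 5 genes above the filter on the hSOD1G93A and NonTG arrays; the horizontal line is the mean and the bar its SD (n = 3). The groups overlap in all 5 panels, and array A is the lowest Ass1 value in both groups.

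Across the 18625 probe sets fitted, 0% passed limma's adjusted threshold of 0.05, and 0 of the 5 measured genes did. All 5 had adjusted p = 0.9997, and 0.762 to 1.0 over the alternatives. At an unadjusted p of 0.05 the count was 0 of 5, where 2.54% of all probe sets (474) were called. With the letter as a replicate block it was 2 of 5, Ass1 and Ddah1, both lower in hSOD1G93A, where 5.85% of all probe sets (1090) were called. Their adjusted p with the block was 0.834 in limma, so the calls after adjustment did not change. By sign 4 of the 5 were lower in hSOD1G93A and 1 was higher, with a median difference of -0.20 (-0.12 without hSOD1G93A B and -0.13 without NonTG C), beside a median of 0.0030 over the 10473 genes tested, 49.0% of which were lower. With the dim genes added, each by its brightest probe set, the median over all 10 genes was 0.011.

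The other genes of these routes were taken from a list of 51. The platform annotation used here gave 35 of them a probe set of their own, and 25 were above the filter. After adjustment in limma 0 of the 25 passed (adjusted p = 0.9997 for each). At an unadjusted p below 0.05 it called 1 of the 25, beside 2.54% of all probe sets. With the letter as a replicate block it called 3 (Slc7a1, Cav1 and Gucy1b1), beside 5.85%. By sign 9 were higher and 16 lower in hSOD1G93A, with a median of -0.0365. All hSOD1G93A arrays lay above all NonTG arrays for 2 of the 25, beside 4% of all probe sets, and below them for 4 of the 25, beside 3.51%.

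Arginine supply and use held 4 of these 6 genes. Slc7a1, the main arginine transporter of the plasma membrane, read 413.7, 302.4 and 343.9 in hSOD1G93A, against 480.8, 416.8 and 518 in NonTG (1368391_at), a difference of -0.42 (SE 0.16, 95% interval -0.77 to -0.073). All 3 hSOD1G93A arrays were below all 3 NonTG arrays, and this was the gene with an unadjusted p below 0.05. A second Slc7a1 probe set differed by -0.18 (SE 0.16) and its groups overlapped. Asl, which splits the product of Ass1 into arginine and fumarate, differed by -0.22 (SE 0.12) with all hSOD1G93A arrays lower (1367754_s_at, whose suffix marks probes that may bind several transcripts), while a second probe set differed by 0.063 (SE 0.13).

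Arg1 and Arg2, the arginases that take arginine away toward ornithine, differed by -0.57 (SE 0.34) and -0.12 (SE 0.11). Arg1 read 444.9, 154.8 and 180.4 in hSOD1G93A, against 326.3, 341.5 and 362 in NonTG, so that hSOD1G93A held both the highest and the lowest arrays. Its difference was -1.04 without hSOD1G93A A and -0.28 without hSOD1G93A B. Ddah2, the other enzyme that clears methylated arginines, was higher on all 3 hSOD1G93A arrays by 0.092 (SE 0.078), while Ddah1 was not higher on average. Odc1, which uses ornithine for polyamines, differed by 0.030 (SE 0.069). Over the 7 measured genes of arginine supply and use 3 were higher and 4 lower.

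Partners of the synthases were 6, with 3 higher and 3 lower. Nos1ap, an adaptor of Nos1, read 79.6, 89.05 and 117.9 in hSOD1G93A, against 65.4, 38.1 and 77.8 in NonTG (1392299_at), a difference of 0.70 (SE 0.35). Its groups did not overlap, but 2 of the 3 NonTG signals were under 66.7, and the difference was 0.40 without NonTG B. A second Nos1ap probe set (1370438_at), under the filter, read 4.35, 77.1 and 27.4 in hSOD1G93A and 41.4, 51.8 and 12.2 in NonTG. Cav1, caveolin 1, which binds and restrains Nos3, was lower on all 3 hSOD1G93A arrays by a small amount, -0.13 (SE 0.063), and 2 further probe sets differed by -0.15 and -0.25. Calm2, a calmodulin gene, differed by -0.16 (SE 0.10), and by -0.036 without NonTG B.

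In the tetrahydrobiopterin route Pts, which acts after Gch1, differed by 0.014 (SE 0.17; -0.0011 after quantile normalization) and Qdpr, which recycles the cofactor, by -0.0365 (SE 0.10). Among genes that remove nitric oxide products or reduce haem proteins, Adh5, which reduces nitrosoglutathione, differed by -0.088 (SE 0.11; -0.21 to -0.02 when 1 array was left out) and Cyb5r3, a cytochrome b5 reductase, by 0.0023 (SE 0.070). Of the other oxidase genes Rac1, a small GTPase on the list of cytosolic subunits and regulators, differed by -0.090 (SE 0.072). Poldip2, a Nox4 partner, differed by 0.12 (SE 0.12), by 0.022 without hSOD1G93A B, by 0.036 without NonTG A and by -0.013 on a second probe set. Cybc1, a chaperone of Cybb and Cyba, differed by -0.025 (SE 0.11), and Duoxa1, a maturation factor of a dual oxidase, by -0.015 (SE 0.29). The genes Nox1, Duox2, Ncf4, Noxo1, Rac2, Nostrin, Slc7a2, Gucy1a2, Gucy1b2 and Prkg2 were under the filter. Of the 4 oxidase catalytic subunits with a probe set of their own (Nox1, Nox4, Cybb and Duox2), Nox4 was the only 1 above the filter.

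**Figure D3:**
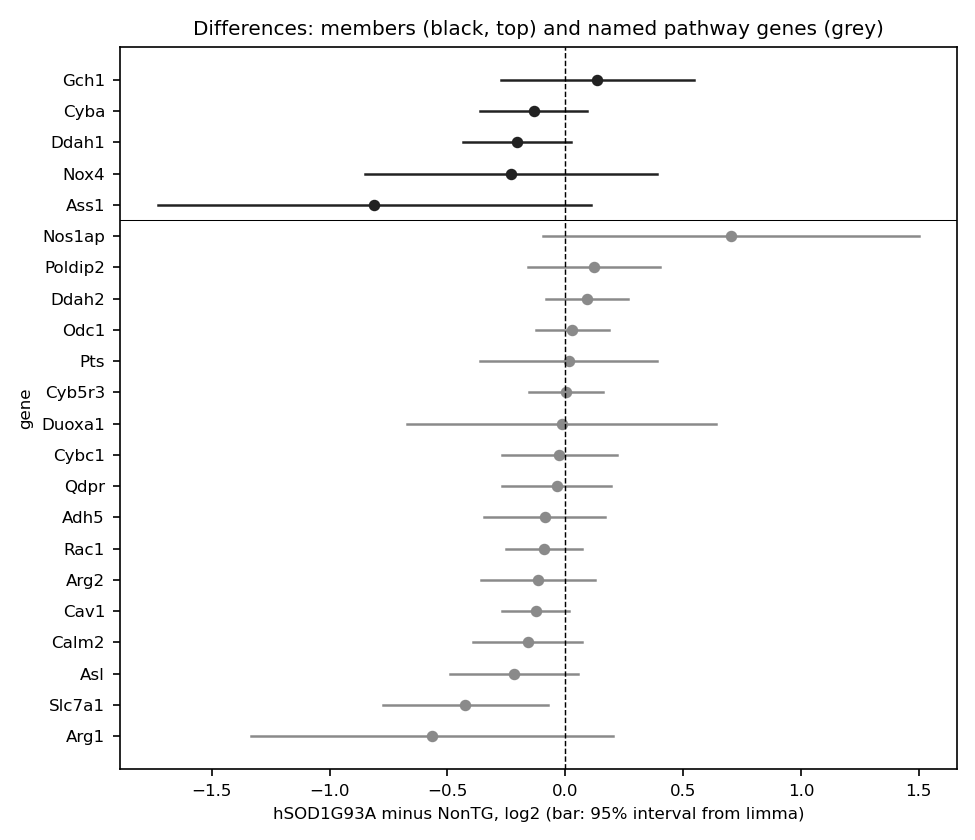
Difference of hSOD1G93A minus NonTG on the log2 scale (x axis) with limma's 95% interval for the 5 measured nitric oxide and oxidase genes (black) and the 17 pathway genes named by rule (grey). The interval crosses 0 for all 5 black genes and for all grey ones but Slc7a1, at -0.77 to -0.073. All intervals are from the fit without the letter as a replicate block. With that block limma's unadjusted p was below 0.05 for Ass1, Ddah1, Slc7a1 and Cav1 among the genes shown.

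Among the 5 measured genes of nitric oxide and the oxidases, Ass1 and Nox4 had the widest ranges over the 6 arrays, 1.86 and 0.97 on the log2 scale. They were compared with the probe sets of other genes that had 1 symbol and were above the filter. The measure was the root mean square difference of log2 values centred on their own mean. Closest to Ass1 were Slc14a2, a urea transporter, with its probe sets 1387550_a_at and 1370494_at at 0.266 and 0.330, and Lars1, leucyl-tRNA synthetase, at 0.312. Slc14a2 (1387550_a_at) read 398.8, 726.2 and 1052 in hSOD1G93A, against 495.5, 1045 and 1455 in NonTG. As with Ass1, array A was lowest and array C highest in both groups.

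Closest to Nox4 were Tnc, the matrix protein tenascin C, at 0.049, Actn1, an actin crosslinker, at 0.054, and Grb14, an adaptor of the insulin receptor, at 0.055. Tnc read 9446, 5071 and 7712 in hSOD1G93A, against 9513, 6915 and 9514 in NonTG, with array B lowest in both groups. With 6 arrays and many probe sets such likeness describes these arrays only.

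Gucy1a1 and Gucy1b1 code for the subunits of soluble guanylate cyclase, the receptor of nitric oxide, and are named here after their values were seen. Gucy1a1 (1368154_at) read 457.5, 91.1 and 243.3 in hSOD1G93A, against 301.6, 220.6 and 341.9 in NonTG, a difference of -0.39 (SE 0.48). Gucy1b1 (1369097_s_at) read 796.4, 240.4 and 493 in hSOD1G93A, against 831.1, 328.1 and 614.8 in NonTG, a difference of -0.28 (SE 0.43). On these probe sets array B was the lowest of each group, as for Nox4, and without hSOD1G93A B the differences turned to 0.24 and 0.18. The second probe sets did not all follow this order. A second Gucy1a1 probe set (1387079_at) read 167.9, 106.6 and 94.2 in hSOD1G93A, against 122.2, 60.8 and 157.7 in NonTG, a difference of 0.18 (SE 0.38), with array C lowest in hSOD1G93A. A second Gucy1b1 probe set (1374389_at) read 946.9, 288.9 and 347.7 in hSOD1G93A, against 705.9, 277.6 and 590.7 in NonTG, a difference of -0.09 (SE 0.46), with array B lowest in both groups. The pericyte and smooth muscle markers Myl9 and Tagln were lowest on hSOD1G93A B as well: Myl9, a myosin light chain, read 6884, 2090 and 3835 in hSOD1G93A, against 5157, 3561 and 5596 in NonTG.

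**Figure D4:**
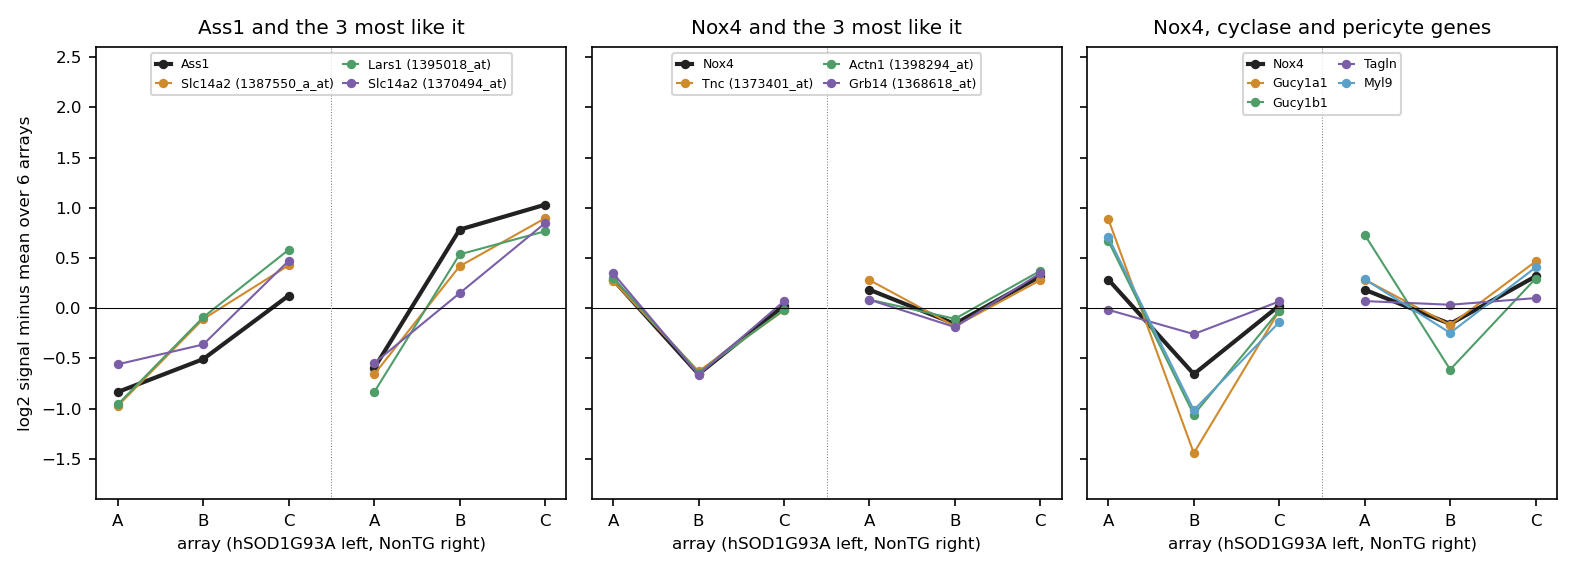
Log2 signal minus the mean over the 6 arrays (y axis) by array (x axis, hSOD1G93A left and NonTG right; lines join arrays of a group only to guide the eye) for Ass1 and Nox4 with the 3 probe sets most like each, and for Nox4 with both cyclase subunits and the brightest pericyte markers. Ass1 is lowest on array A in both groups, and Nox4 on array B.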

How the data were processed

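Per the submitters' processing notes, GCOS 1.4 and MAS5 gave the deposited intensity values, which are linear and number 1 for each probe set on each array, from Affymetrix Rat Genome 230 2.0 arrays. GC-RMA and log values are named in the series' description, but the deposited values are not logs, and their mean after trimming 2% at each end was 500.16 to 500.17 on all 6 arrays. Median signals were 128.8 to 136.3.

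Their log2 was used as it stood, without pseudocount or rescaling. Control probe sets (57 of 31099) were left out. Detection calls were not used, so the 40th percentile of mean log2 served as filter and left 18625 probe sets. Symbols came from the platform annotation: 20826 probe sets had 1, 436 several and 9780 none. hSOD1G93A minus NonTG was fitted in limma 3.58.1 under R 4.3.3 (eBayes, trend on intensity), and two-sided p-values were adjusted by Benjamini and Hochberg's method across all of those probe sets. A gene of a list was represented by its brightest probe set above the filter. The fit was first run on simulated data with independent normal noise, in which 200 of 18625 probe sets were changed. At a log2 change of 1 it recovered 96 of them (48%) with 3 false calls. At a log2 change of 2 it recovered 177 (88.5%) with 10 false calls. Smaller changes were not simulated. The number of arrays limits the precision, and a permutation test of 3 arrays against 3 cannot go below 0.1.

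Deviations of the arrays from their group means correlated at 0.297, 0.254 and 0.199 between the groups for the letters A, B and C. Between different letters the correlations were -0.277 to 0.025. Deviations from a group mean cancel within the group, so these correlations are not independent, and few matchings of the letters are possible. Whether the letters pair the arrays therefore cannot be decided from these correlations, and no label states a pairing. Alternatives were no filter, a stricter one (60th percentile), a pseudocount of 32, quantile normalization, no trend, array weights, the letter as a replicate block, and leaving out each array. Genes named were all members, and of the pathway list those without overlap between groups, the 6 with the smallest p and the 2 brightest of each of its 6 sublists; likeness is given for the 2 members of widest range among those above the filter. The members and lists were chosen with earlier results of these data known.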

Additional observations from a re-analysis of the deposited data

How the results depend on the processing

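In limma 0 probe sets passed after adjustment under every alternative run (no filter, stricter filter, pseudocount, quantile normalization, no trend, array weights, replicate block, and leaving out each array), with 283 (stricter filter) to 1183 (without hSOD1G93A A) at an unadjusted p below 0.05. With the letter as a replicate block the count was again 0, and the block changed no call after adjustment. At an unadjusted p below 0.05 it called 1090 probe sets (5.85%), in place of 474 (2.54%). Among the 5 measured genes it took the unadjusted count to 2 and among the 25 pathway genes to 3, in place of 0 and 1. The 25 differences of genes named had 318 alternative values in all. Of these 298 kept their direction, 20 did not, and 0 passed the threshold (lowest adjusted p = 0.42, for Arg1). The 20 fell on 9 genes. Leaving out 1 array gave for Nox4 -0.43 to 0.040, Gucy1a1 -0.93 to 0.24, Gucy1b1 -0.68 to 0.18, Odc1 -0.0017 to 0.050, Pts -0.13 to 0.15, Qdpr -0.092 to 0.050, Cyb5r3 -0.035 to 0.039, Duoxa1 -0.30 to 0.15 and Cybc1 -0.092 to 0.020. For genes that kept their direction, leaving out 1 array moved the value by over 1.5 times also for Asl (-0.13 without hSOD1G93A A), Ddah2 (0.052 without hSOD1G93A B) and Rac1 (-0.053 without hSOD1G93A C and -0.14 without hSOD1G93A B). Array weights gave -0.022 for Cyb5r3 and 0.027 for Duoxa1, and quantile normalization -0.0011 for Pts. With no filter the median over the nitric oxide and oxidase genes was 0.011, over 10 genes in place of 5. Leaving out 1 array gave for that median -0.28 to -0.12 over the 5 above the filter. The median over the pathway list was -0.087 to -0.0003 when 1 array was left out (without hSOD1G93A A and without NonTG A). The stricter filter left out Nox4, Gch1 and Ass1. Signal near the limit of measurement kept the synthases, Cybb and Ncf1 from being given as folds.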
